A study of Heterocephalus glaber and Mus musculus with 9 samples.

Results

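The naked mole-rat (NM-R), a long-lived subterranean rodent, and the laboratory mouse both make blood cells in the spleen, and 7 genes of megakaryocytes and platelets were followed here in spleen RNA of both species. The genes were the integrin chains Itga2b and Itgb3, the adhesion receptor chain Gp1bb, the tubulin Tubb1, the transcription factor Fli1, and Vwf and Cd63 of the platelet granules. They were chosen with earlier results of these data known. They were taken by symbol, matched without regard to case, and all 7 were found among the 12946 genes of the table of normalized counts. Spleens came from 3 male wild-type C57Bl/6N mice aged 2 months and from 6 healthy NM-Rs outside the breeding pair of their colony. The NM-Rs had been put into cohorts by spleen mass relative to body mass. Those with small spleens (ssNM-R) were numbered 2, 3 and 6, were male and were 30, 26 and 23 months old, while those with large spleens (lsNM-R) were numbered 1, 4 and 5 and were 24, 29 and 23 months old. Of these, lsNM-R 4 was female and the others were male. Mice and NM-Rs differed in age, housing temperature and genome annotation as well as in species, and these cannot be told apart in the comparison. Values are read counts divided by a size factor per library (normalized counts), and the libraries held between 7815326 and 18387599 reads.

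Megakaryocytes are large polyploid cells that arise from a progenitor shared with red blood cells, and they shed platelets through long processes built from microtubules. In rodents the spleen is a site of their formation throughout life, and it also holds a pool of circulating platelets, so that RNA of megakaryocytes and of platelets is read together in whole spleen. Platelets stick to an injured vessel wall through the Gp1b complex, which binds von Willebrand factor, and are linked to each other by fibrinogen held by the integrin of Itga2b and Itgb3.

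In NM-R spleens, 4 of the 7 genes were higher than in mice, 1 was lower and 2 did not pass the test. Cd63, Itga2b, Tubb1 and Gp1bb rose, with NM-R means 5.67, 5.26, 3.33 and 2.55 times the mouse means, whereas Vwf fell to 0.259 times the mouse mean. Itgb3 and Fli1 had NM-R means 1.42 and 1.26 times those of mice and did not pass the threshold, which was an adjusted p of 0.05 in limma with Benjamini-Hochberg adjustment over all genes. In DESeq2 both passed, at an adjusted p of 0.0452 for Itgb3 and 0.0453 for Fli1. They also passed with an equal upper quartile and with a replicate block, as given below. The background in this comparison was large, since 39.7% of all 12946 genes were called higher and 38.8% lower. Being called was therefore common among all genes, and the counts of 4 higher and 1 lower among 7 do not set these genes apart. The median log2 fold change was 1.33 over the 7 genes and 0.01 over all genes. Over 126 other megakaryocyte and platelet genes, ordered by role below, it was -0.12. In 4 of the 7 genes every NM-R spleen lay above every mouse spleen and in 1 below, against 36.4% and 36.2% of all genes. The study had reported all of the chosen genes but Vwf as raised in NM-R spleens. The choice thus favoured rises, and neither the median nor the lack of overlap sets these genes apart. A whole spleen mixes many cell types, so fewer cells of a type and less RNA per cell cannot be told apart.

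Each cohort gave a like picture when set against the mice, which both comparisons share. In ssNM-Rs 4 of the 7 genes were called higher and 1 lower, with 38% of all genes called higher and 37.5% lower. In lsNM-Rs 5 were called higher, the addition being Fli1, and 1 lower, with 38.1% and 37% of all genes called in these directions.

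Itga2b encodes the αIIb chain of the fibrinogen receptor, a chain made by megakaryocytes and their early progenitors, and lies at chr11:102314611-102331436 on the minus strand of mouse genome build mm9. Its partner Itgb3 encodes the β3 chain, which other cells also pair with the integrin αV chain, and lies at chr11:104469370-104531790 on the plus strand of the same chromosome. Tubb1, the β1 tubulin of megakaryocytes and platelets, lies at chr2:174276196-174283383 on the plus strand. The 250 bases before the start of each of these genes are shown in mm9 because Itga2b and Tubb1 rose while Itgb3 did not pass the test. Starts are those of the most upstream transcript of the consensus coding set, and capitals mark GGAAG on either strand (CTTCC on the other), the core to which ETS factors such as Fli1 bind. No GATAA, a form of the core of GATA factors, was found on either strand of these windows.
Itga2b, chr11:102331198-102331447, minus strand: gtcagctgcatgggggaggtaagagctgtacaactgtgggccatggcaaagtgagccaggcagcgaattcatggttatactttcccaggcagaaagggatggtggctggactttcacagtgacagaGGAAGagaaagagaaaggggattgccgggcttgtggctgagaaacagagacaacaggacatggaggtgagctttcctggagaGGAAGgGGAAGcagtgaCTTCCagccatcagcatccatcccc
Itgb3, chr11:104469120-104469369, plus strand: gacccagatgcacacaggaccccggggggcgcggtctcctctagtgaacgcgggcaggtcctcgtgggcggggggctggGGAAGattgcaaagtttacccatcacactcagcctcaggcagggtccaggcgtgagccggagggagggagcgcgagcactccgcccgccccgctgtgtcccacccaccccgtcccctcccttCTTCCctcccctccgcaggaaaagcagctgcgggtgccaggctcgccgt
Tubb1, chr2:174275946-174276195, plus strand: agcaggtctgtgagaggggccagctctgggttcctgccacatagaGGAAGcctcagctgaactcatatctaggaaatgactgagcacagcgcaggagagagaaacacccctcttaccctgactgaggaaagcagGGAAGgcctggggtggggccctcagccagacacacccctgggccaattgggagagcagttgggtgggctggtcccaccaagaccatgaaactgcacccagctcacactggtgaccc
The Itga2b window held 4 GGAAG matches, and 3 of them lay within 50 bases of the start, while the Itgb3 and Tubb1 windows held 2 each. Most of the Itga2b window and all of the Vwf window lie inside the gene spans given in this text, since those spans begin further upstream than the starts used. Part of the Itga2b window is also an exon of a noncoding Itga2b transcript. Each of the 7 genes had at least 1 GGAAG match in its window, compared to 66.4% of the 10373 windows of this length taken from the table's genes. Vwf alone had a GATAA match, which 15.5% of all windows hold. Other forms of the GATA core, such as GATAG, were not searched for. A match describes the letters in the mouse window, and NM-R promoters were not analysed here.

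Itga2b was measured at 1363, 1444 and 1033 in mouse 1, 2 and 3, 6807, 6405 and 7458 in ssNM-R 2, 3 and 6, and 6967, 7978 and 4780.2 in lsNM-R 1, 4 and 5. All 6 NM-R spleens lay above all 3 mice, and within the NM-Rs lsNM-R 4 was highest and lsNM-R 5 lowest. The means were 1279.7 ± 217 (SD, n = 3) in mice and 6733 ± 1101 (SD, n = 6) in NM-Rs, and the log2 fold change was 2.39 (SE 0.17, limma adjusted p = 5.61e-07). Itgb3 was measured at 2296, 2731 and 1868 in mouse 1, 2 and 3, 3404, 2824 and 2946 in ssNM-R 2, 3 and 6, and 3216, 5057 and 2157 in lsNM-R 1, 4 and 5. Here the species overlapped, since lsNM-R 5 lay below mouse 1 and mouse 2, while lsNM-R 4 lay far above every other spleen. The means were 2298 ± 431 (SD, n = 3) in mice and 3267 ± 976 (SD, n = 6) in NM-Rs, and the log2 fold change of 0.48 (SE 0.23, limma adjusted p = 0.0825, 95% interval -0.04 to 0.99) did not pass the threshold. Without lsNM-R 5 it was 0.63 with a limma adjusted p of 0.00930, and over all alternatives run the adjusted p of Itgb3 lay between 0.00930 and 0.288.

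The ratio of Itga2b to Itgb3 within a spleen does not depend on the size factor of its library, and was taken up after the values had been seen. It was 0.594, 0.529 and 0.553 in mouse 1, 2 and 3, 2.00, 2.27 and 2.53 in ssNM-R 2, 3 and 6, and 2.17, 1.58 and 2.22 in lsNM-R 1, 4 and 5. Every NM-R spleen had more Itga2b than Itgb3 reads and every mouse spleen fewer. The mean ratio was 0.558 ± 0.0328 (SD, n = 3) in mice and 2.13 ± 0.320 (SD, n = 6) in NM-Rs, 3.81 times as high. Ratios of Tubb1 to Itgb3 and of Itga2b to Gp1bb, likewise taken up after the values had been seen, were also higher in every NM-R spleen than in every mouse, with NM-R means 2.35 and 2.07 times the mouse means. These are ratios of reads, and a different length of the counted transcripts in the NM-R genome would change them by a constant factor. NM-R transcript lengths were not analysed here.

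**Figure D1:**
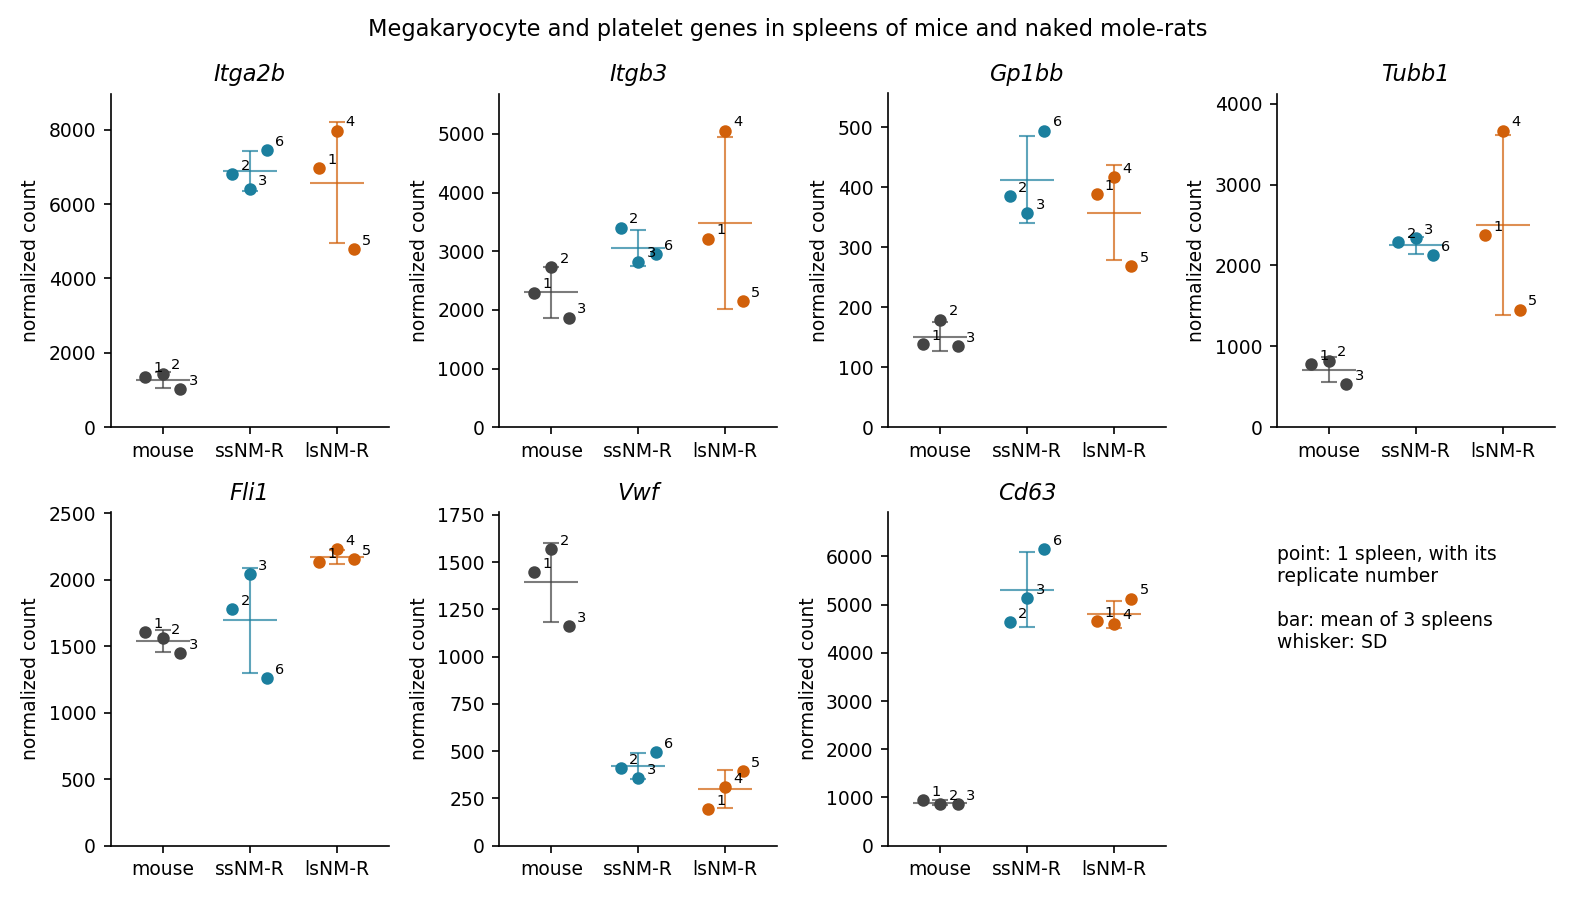
Normalized counts of the 7 genes (y axis, from 0) in the spleens of mice, ssNM-Rs and lsNM-Rs (x axis), with each spleen as a point marked by its replicate number, the mean of 3 spleens as a bar and the SD as whiskers. Itga2b, Gp1bb, Tubb1 and Cd63 are higher in all 6 NM-R spleens than in the 3 mice, Vwf is lower, and the points of Itgb3 and Fli1 overlap between the species.

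Gp1bb encodes the β chain of the Gp1b receptor complex, which holds platelets to von Willebrand factor under flow, and lies at chr16:18620412-18622496 on the minus strand. It was measured at 138, 179 and 135 in mouse 1, 2 and 3, 386, 357 and 495 in ssNM-R 2, 3 and 6, and 388, 417 and 268 in lsNM-R 1, 4 and 5. The highest mouse lay below the lowest NM-R, lsNM-R 5. The log2 fold change was 1.33 (SE 0.18, limma adjusted p = 5.83e-05). In mm9, 593 bases (31.5%) of its exons are shared with Sept5 on the same strand. How reads in shared exons were counted is not given in the sources used here. Its level in mice, and with it the size of its fold between the species, is therefore uncertain. The chains Gp1ba and Gp9 of the same complex are not listed under these symbols and were not analysed here.

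Tubb1 makes the band of microtubules that coils under the platelet membrane, and it is hardly used outside this lineage. It was measured at 782, 824 and 531 in mouse 1, 2 and 3, 2284, 2333 and 2132 in ssNM-R 2, 3 and 6, and 2370.0, 3667 and 1454 in lsNM-R 1, 4 and 5. The NM-R spleens were all above the mice but were spread widely in the lsNM-R cohort, where lsNM-R 4 was highest and lsNM-R 5 lowest. The means were 712 ± 159 (SD, n = 3) in mice and 2373 ± 719 (SD, n = 6) in NM-Rs, and the log2 fold change was 1.71 (SE 0.25, limma adjusted p = 1.26e-04).

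Vwf, which lies at chr6:125496792-125636697 on the plus strand, encodes von Willebrand factor, a long multimer stored in the α granules of platelets and in the Weibel-Palade bodies of endothelial cells. It was measured at 1447, 1569 and 1159.8 in mouse 1, 2 and 3, 409, 359 and 493 in ssNM-R 2, 3 and 6, and 195, 310.3 and 394 in lsNM-R 1, 4 and 5. It was the only one of the 7 genes with all NM-R spleens below all mice, and lsNM-R 1 was the lowest. The means were 1392 ± 209.9 (SD, n = 3) in mice and 360.0 ± 101 (SD, n = 6) in NM-Rs, and the log2 fold change was -1.99 (SE 0.21, limma adjusted p = 1.03e-05). Since endothelial cells also make Vwf, the endothelial markers are given beside it. Of 20 such markers 19 were in the table, with 5 called higher in NM-R, 8 lower and 6 not called, a median log2 fold change of -0.27, and none at 0 in either species.

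Their summed normalized counts were 32914, 30213 and 26034 in mouse 1, 2 and 3, 15704, 17143 and 17631 in ssNM-R 2, 3 and 6, and 14764, 14669.8 and 15703 in lsNM-R 1, 4 and 5. All NM-R spleens were thus below all mice, with a mean 0.536 times that of mice. The most abundant of them, Stab2, a scavenger receptor of sinusoids, had a log2 fold change of -1.96 (limma adjusted p = 4.83e-08), and Pecam1, Ptprb, Eng and Plvap had -2.00, -2.19, -1.78 and -1.64. The list did not move as a whole. Cdh5, the cadherin of endothelial junctions, was at 1339 ± 248 (SD, n = 3) in mice and 1284 ± 67.4 (SD, n = 6) in NM-Rs, and the growth factor receptor Kdr was at 1505 ± 340.5 (SD, n = 3) in mice and 1245 ± 254 (SD, n = 6) in NM-Rs, with limma adjusted p of 0.720 and 0.214, whereas the sialomucin Emcn rose from 26.2 ± 2.75 (SD, n = 3) to 253 ± 65.3 (SD, n = 6). The part of endothelial cells in the difference of Vwf was not tested.

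Cd63, at chr10:128345975-128349872 on the plus strand, encodes a tetraspanin of the dense granules and lysosomes of platelets that reaches the surface on activation, and most other cells carry it in late endosomes. It was measured at 949, 858 and 869 in mouse 1, 2 and 3, 4639.8, 5142 and 6154 in ssNM-R 2, 3 and 6, and 4664, 4609 and 5127 in lsNM-R 1, 4 and 5. Within the mice and within the NM-Rs the spread was small next to the gap between them, and ssNM-R 6 was the highest. The means were 892 ± 49.9 (SD, n = 3) in mice and 5056 ± 591 (SD, n = 6) in NM-Rs, with a log2 fold change of 2.495 (SE 0.10, limma adjusted p = 1.53e-08). Lamp1, another membrane protein of lysosomes and granules, moved the other way, from 8298 ± 325 (SD, n = 3) in mice to 3549 ± 297 (SD, n = 6) in NM-Rs, a log2 fold change of -1.23 (limma adjusted p = 4.03e-07).

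Fli1, at chr9:32229793-32348974 on the minus strand, encodes an ETS transcription factor needed for late megakaryocyte genes and is also used by endothelial and lymphoid cells. It was measured at 1606, 1559 and 1450.3 in mouse 1, 2 and 3, 1776, 2040.3 and 1262 in ssNM-R 2, 3 and 6, and 2129.9, 2229.7 and 2153 in lsNM-R 1, 4 and 5. The lsNM-R spleens lay close together and above all mice, whereas the ssNM-R spleens were spread around the mouse values, with ssNM-R 6 below every mouse. Over both cohorts the log2 fold change was 0.30 (SE 0.13, limma adjusted p = 0.0596), which did not pass the threshold. Without ssNM-R 6 it was 0.40 with a limma adjusted p of 0.00125, and over all alternatives the adjusted p lay between 0.00125 and 0.174. In lsNM-Rs alone the log2 fold change against mice was 0.50 (limma adjusted p = 0.0145), and in ssNM-Rs it was 0.11 (limma adjusted p = 0.528). The ssNM-R value was 0.31 without ssNM-R 6 (limma adjusted p = 0.0187) and -0.0379 without ssNM-R 3 (limma adjusted p = 0.825). Its adjusted p lay between 0.0187 and 0.825 over the alternatives. The call in lsNM-Rs was lost in 2 of 21 alternatives, and without mouse 3 Fli1 had a limma adjusted p of 0.0508 within a range from 6.93e-04 to 0.0984 over the alternatives. The log2 difference between the cohorts was 0.39 (unadjusted p = 0.0322, limma adjusted p = 0.540), so a difference between them was not called.

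The cohorts were compared to ask whether a large NM-R spleen differs in these genes from a small one. None of the 7 genes was called between lsNM-R and ssNM-R in limma, nor was any in edgeR or DESeq2 on the recovered reads. At an unadjusted p under 0.05 limma gave 1 of the 7, Fli1. Among all 12946 genes limma called 0 (0%), edgeR 0 and DESeq2 54, while 1138 (8.79%) had an unadjusted limma p under 0.05. Fli1 was also the only one of the 7 whose cohorts did not overlap, which held for 13.1% of all genes. The log2 differences and their 95% intervals were -0.10 (-0.53 to 0.33) for Itga2b, -0.22 (-0.67 to 0.24) for Gp1bb and -0.14 (-0.40 to 0.12) for Cd63. They were wider for Itgb3, at 0.10 (-0.49 to 0.70), and Tubb1, at 0.05 (-0.60 to 0.70), whose lsNM-R values were the most spread. In the main fit Vwf had the largest difference in size, -0.53 (-1.07 to 0.01, unadjusted p = 0.0525, limma adjusted p = 0.569), and its cohorts overlapped. With spleens left out the Vwf difference lay between -0.758 and -0.251. For Fli1 the difference was 0.39 (0.04 to 0.73), the only interval of the 7 without 0. With spleens left out the Fli1 difference lay between 0.189 and 0.535, and its lowest value over all alternatives was 0.0664. A doubling in either direction lay outside the 95% intervals for all of the 7 but Vwf.

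**Figure D2:**
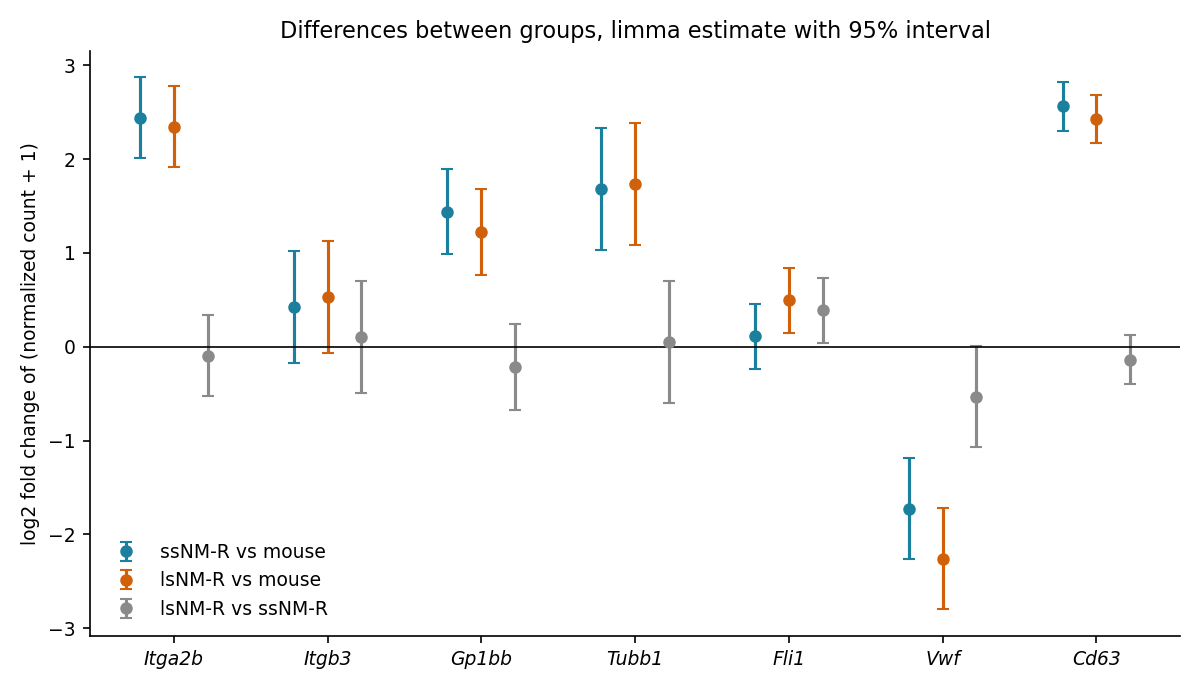
Log2 fold change of normalized count + 1 (y axis) for each of the 7 genes (x axis) between ssNM-R and mouse, lsNM-R and mouse, and lsNM-R and ssNM-R, with points for limma estimates and whiskers for 95% intervals. The estimates against mice lie between 2.34 and 2.44 for Itga2b and between -2.26 and -1.73 for Vwf, and those between the cohorts between -0.53 and 0.39.

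Levels of different genes were compared in mice only, per kilobase of exon in mm9. The mean was 865 ± 48.4 normalized counts per kilobase for Cd63, 506 ± 113 for Tubb1, 495 ± 25.7 for Fli1, 393 ± 73.8 for Itgb3, 235 ± 39.9 for Itga2b, 86.6 ± 13.1 for Vwf and 80.3 ± 13.1 for Gp1bb (SD, n = 3 each). Cd63 stood clearly above the rest and Vwf clearly below. Gp1bb also lay below, but its level is uncertain because of the exon bases it shares with Sept5. The neighbours Tubb1 and Fli1, Fli1 and Itgb3, and Vwf and Gp1bb were separated by no more than their spread or little more. Per kilobase, mouse spleen thus held less Itga2b than Itgb3 RNA.

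Spleens of a species also differed among themselves, and they did so in a like way for several of the genes. Each value was divided by the mean of its species. For Itga2b, Itgb3, Gp1bb and Tubb1 the quotient was between 0.612 and 0.710 in lsNM-R 5, the lowest NM-R spleen for all of these genes, and between 1.08 and 1.55 in lsNM-R 4, which was the highest for each but Gp1bb. In mice it was highest in mouse 2, between 1.13 and 1.19, and lowest in mouse 3, between 0.745 and 0.896. The same spleens were at the ends for Treml1, Clec1b and Alox12, a triggering receptor, the podoplanin receptor and the lipoxygenase of platelets, which were taken up after their values had been seen. In lsNM-R 5 these stood at 0.619, 0.629 and 0.625, and in lsNM-R 4 at 1.46, 1.34 and 1.45. Of the 7 members, 4 were highest in lsNM-R 4 among the NM-Rs and 4 were lowest in lsNM-R 5, compared to 17.5% and 16.1% of all genes that could be ordered. Among mice 6 of the 7 were lowest in mouse 3, against 38.2% of all genes. Among 126 other megakaryocyte and platelet genes, ordered by role below, 30.2% were highest in lsNM-R 4 and 20.6% lowest in lsNM-R 5. For ssNM-R 6 the share lowest was 25.4%, near the 23.2% of all genes. Of the 126 genes, 62.7% were lowest in mouse 3. Mouse 1 was the highest mouse for 57.1% of them and mouse 2 for 24.6%, beside 42.5% and 21.7% of all genes.

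Vwf and Cd63 did not follow this order in NM-Rs, where both were highest in ssNM-R 6. Fli1 was highest in lsNM-R 4, at 1.15, but stood at 1.11 in lsNM-R 5 and was lowest in ssNM-R 6, at 0.653. In mice Slc4a1, the anion exchanger of red cells, stood at 0.372 of the mean in mouse 1 and at 1.48 in mouse 3. Thus mouse 3, lowest for Itga2b, Itgb3, Gp1bb and Tubb1, was highest for Slc4a1. In NM-Rs Slc4a1 was lowest in lsNM-R 5, at 0.826, and highest in ssNM-R 2, at 1.33, while Tal1, a factor of both lineages, was highest in lsNM-R 4, at 1.28, and lowest in ssNM-R 6, at 0.845. Among the NM-Rs, lsNM-R 4 was the only female, and lsNM-R 4 and lsNM-R 5 were both among the deeply sequenced libraries, with 16883689 and 18387599 reads. The part of sex in the order of the spleens was not tested.

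**Figure D3:**
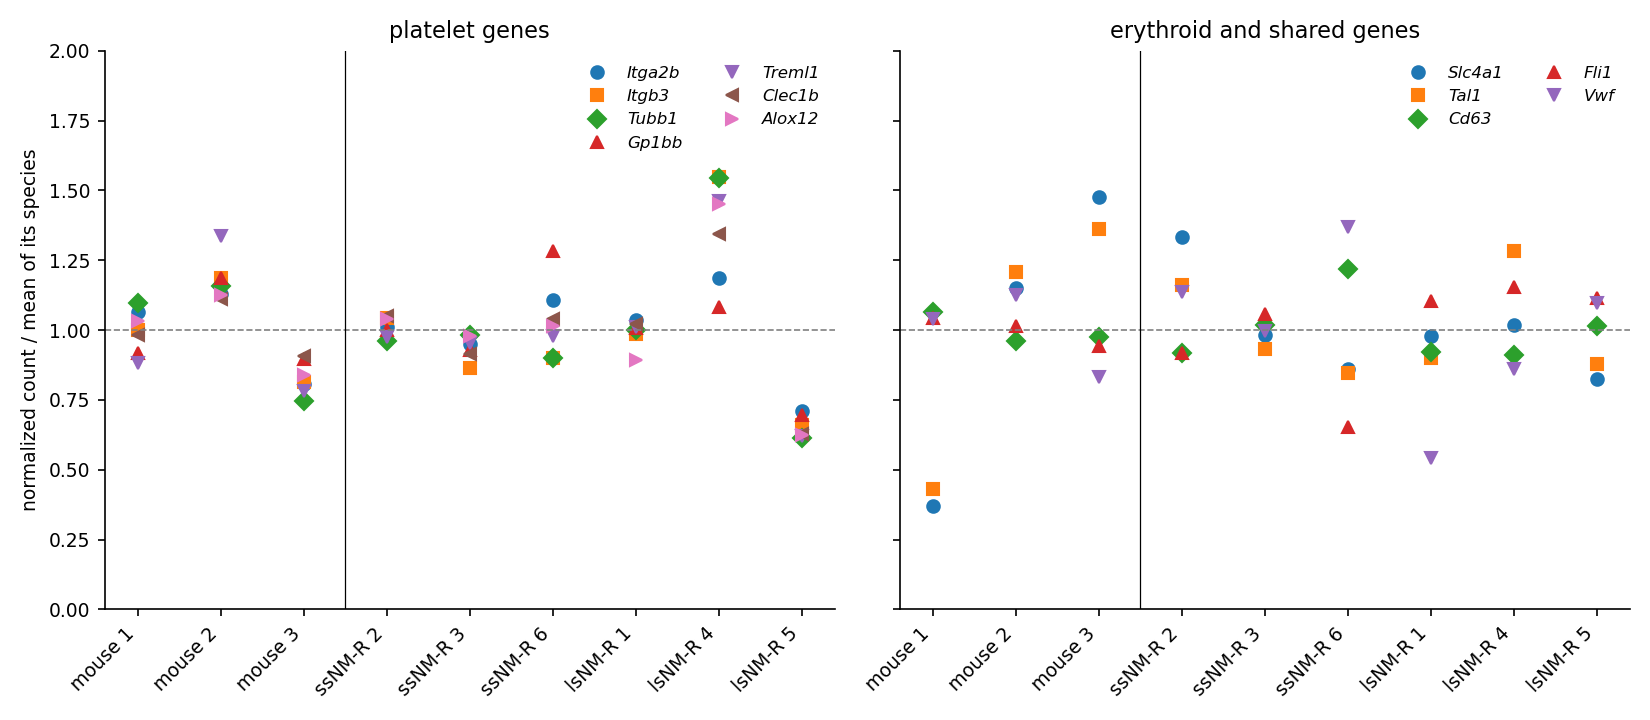
Normalized count divided by the mean of its species (y axis, no unit) in each spleen (x axis, a line parts mice from NM-Rs), for 7 platelet genes at the left and for Slc4a1, Tal1, Cd63, Fli1 and Vwf at the right, with a marker per gene. Itga2b, Itgb3, Gp1bb, Tubb1, Treml1, Clec1b and Alox12, plotted at the left, lie between 0.612 and 0.710 in lsNM-R 5 and between 1.08 and 1.55 in lsNM-R 4, whereas Slc4a1 and Tal1 are lowest in mouse 1.

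For each of the 7 genes, the 2 genes with the most similar profile over the 9 spleens were sought among 10003 genes whose mean reached 50 normalized counts. The measure was the root mean square difference of log2 values, each centred on its own mean. Closest to Itgb3 were Alox12, at 0.124, and Treml1, at 0.169, where the median over all genes was 0.634. Closest to Fli1 were Fgr (0.0800), a kinase of myeloid cells, and Pcgf5 (0.0881), and closest to Cd63 was Lims2 (0.0640), followed by a gene with an NM-R identifier alone. Those nearest to Itga2b were Mvk (0.171) and Capn3 (0.183), those nearest to Gp1bb Ofd1 (0.162) and Nop14 (0.165), and those nearest to Vwf Rcn3 (0.153) and Nkx3-2 (0.226). For Tubb1 they were a gene with an NM-R identifier alone and Lins (0.188). The measure takes in differences between the species as well as those among spleens of a species.

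The rest of the machinery was read from 7 lists of megakaryocyte and platelet genes ordered by role, with the 7 members left out. Of 144 such genes 126 were in the table, and 40 of these were called higher in NM-R (31.7%), 52 lower (41.3%) and 34 not called, with a median log2 fold change of -0.12. These shares stand beside the 39.7% and 38.8% of all genes. The lists did not move alike, and the medians of the transcription factors and of the signalling genes lay at opposite ends.

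Of 17 transcription factors 11 were called higher, 2 lower and 4 not called, with a median log2 fold change of 0.68. The largest rises were those of factors that megakaryocytes share with red cells. Tal1, which sets up the blood lineage, was measured at 710.4, 1991 and 2243 in mouse 1, 2 and 3, 17781, 14271 and 12933 in ssNM-R 2, 3 and 6, and 13764, 19659 and 13434 in lsNM-R 1, 4 and 5. Every NM-R spleen was above the highest mouse, and mouse 1 was well below the other mice. Nfe2, needed for platelet release, was at 1104 ± 519.6 (SD, n = 3) in mice and 9928 ± 1868 (SD, n = 6) in NM-Rs, and Gfi1b, a repressor of both lineages, at 439 ± 227 (SD, n = 3) in mice and 3127 ± 611 (SD, n = 6) in NM-Rs. The log2 fold changes were 3.36 for Tal1, 3.28 for Nfe2, 2.96 for Gfi1b and 2.92 for Gata1 (limma adjusted p between 4.05e-06 and 1.64e-05), and without mouse 1 they were 2.84, 2.82, 2.49 and 2.39. Erg, an ETS factor of stem cells, megakaryocytes and endothelium, rose by less, with a log2 fold change of 1.11 (limma adjusted p = 2.40e-05). Runx1, which Fli1 works with, was at 913 ± 56.1 (SD, n = 3) in mice and 818 ± 50.3 (SD, n = 6) in NM-Rs and was not called, and Mef2c and Etv6 fell, with log2 fold changes of -0.77 and -0.48.

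Erythroid markers moved with these factors. Of 20 markers 13 were in the table, all 13 were called higher in NM-R, the median log2 fold change was 2.90, and none was at 0. Their summed normalized counts were 28903, 69156 and 87548 in mouse 1, 2 and 3, 333852, 255390.0 and 223212 in ssNM-R 2, 3 and 6, and 269841, 315509 and 223512 in lsNM-R 1, 4 and 5. Mouse 1 was lowest here too. The most abundant of them, Slc4a1, had a log2 fold change of 1.40 (limma adjusted p = 0.00672), which was 0.80 without mouse 1. The part of erythroid cells in the rise of Tal1, Nfe2, Gfi1b and Gata1 was not tested.

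Of 11 receptors for platelet agonists and other ligands 3 were called higher, 6 lower and 2 not called, with a median log2 fold change of -0.75. The thrombin receptors diverged most. Mouse platelets sense thrombin through F2rl2 and F2rl3, whereas human platelets use F2r and F2rl3, and F2r is also found on vessel walls and fibroblasts. F2rl2 was measured at 263, 352 and 209.7 in mouse 1, 2 and 3, whereas the NM-R spleens held 0, 2 and 3 reads in ssNM-R 2, 3 and 6 and 3, 8 and 3 reads in lsNM-R 1, 4 and 5. It was thus near the limit of detection in every NM-R spleen, and the fitted log2 fold change of -6.38 (limma adjusted p = 6.93e-07) depends on the count of 1 added before taking logarithms. F2r was measured at 1895, 1597 and 1185 in mouse 1, 2 and 3, 5077, 4438 and 9700.3 in ssNM-R 2, 3 and 6, and 4828, 5645 and 7856 in lsNM-R 1, 4 and 5. All NM-R spleens lay above all mice, and ssNM-R 6 and lsNM-R 5 were the highest, with a log2 fold change of 1.97 (SE 0.26, limma adjusted p = 5.81e-05). F2rl3 fell from 201 ± 35.5 (SD, n = 3) to 119 ± 28.0 (SD, n = 6), a log2 fold change of -0.78 (limma adjusted p = 0.00607).

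Among the other receptors, the thromboxane receptor Tbxa2r fell with a log2 fold change of -2.13, the interleukin signalling chain Il6st with -1.17, and the ADP receptor P2ry1 with -0.90, at limma adjusted p of 2.03e-06, 4.16e-05 and 9.77e-04. The ATP channel P2rx1 rose with a log2 fold change of 0.86 and the adrenaline receptor Adra2a with 2.90, at limma adjusted p of 9.47e-04 and 0.00126. Without lsNM-R 4, where Adra2a was as low as in mice, its log2 fold change was 3.38. Adra2a held only 8, 13 and 19 reads in mouse 1, 2 and 3, so the size of its fold is uncertain. P2ry12, the ADP receptor that antiplatelet drugs block, was measured at 475, 419.6 and 365 in mouse 1, 2 and 3, 224, 317 and 294 in ssNM-R 2, 3 and 6, and 893, 930.1 and 371 in lsNM-R 1, 4 and 5. It was not called between the species (log2 fold change 0.05, limma adjusted p = 0.879), whereas lsNM-R 1 and lsNM-R 4 stood far above all ssNM-Rs and the cohorts did not overlap. Such a lack of overlap held for 13.1% of all genes. P2ry12 is named here as 1 of the 3 genes of lowest p between the cohorts among the 126, so its values there are no independent support. The log2 difference between lsNM-R and ssNM-R was 1.29 (unadjusted p = 0.00236, limma adjusted p = 0.442), and DESeq2 gave an adjusted p of 0.00845, within a range up to 0.731 over the alternatives. P2ry12 is also a gene of some macrophages.

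Of 12 adhesion receptors besides the members 5 were called higher, 3 lower and 4 not called, with a median log2 fold change of 0.18. Pear1, Selp and Mpig6b, all of the platelet surface or granule membrane, had the highest log2 fold changes among called genes, at 0.89, 0.82 and 0.56 (limma adjusted p of 2.87e-04, 0.0148 and 0.0440). The call of Selp was lost without mouse 3 (limma adjusted p = 0.0628, range over the alternatives 1.51e-04 to 0.0628), and that of Mpig6b in 10 of 20 alternatives, with a limma adjusted p of 0.149 without mouse 3 (range over the alternatives 0.0102 to 0.167). Cd226, Esam and Itga6, which lymphocytes or endothelium also carry, fell, with -1.88, -1.02 and -0.76. Clec1b and Treml1, the latter hardly found outside the megakaryocyte lineage, were not called. Clec1b was at 498 ± 51.7 (SD, n = 3) in mice and 558 ± 129 (SD, n = 6) in NM-Rs and Treml1 at 253 ± 75.1 (SD, n = 3) in mice and 295 ± 79.3 (SD, n = 6) in NM-Rs, with limma adjusted p of 0.556 and 0.451. Their NM-R means were 1.12 and 1.17 times the mouse means, beside 5.26 times for Itga2b.

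**Figure D4:**
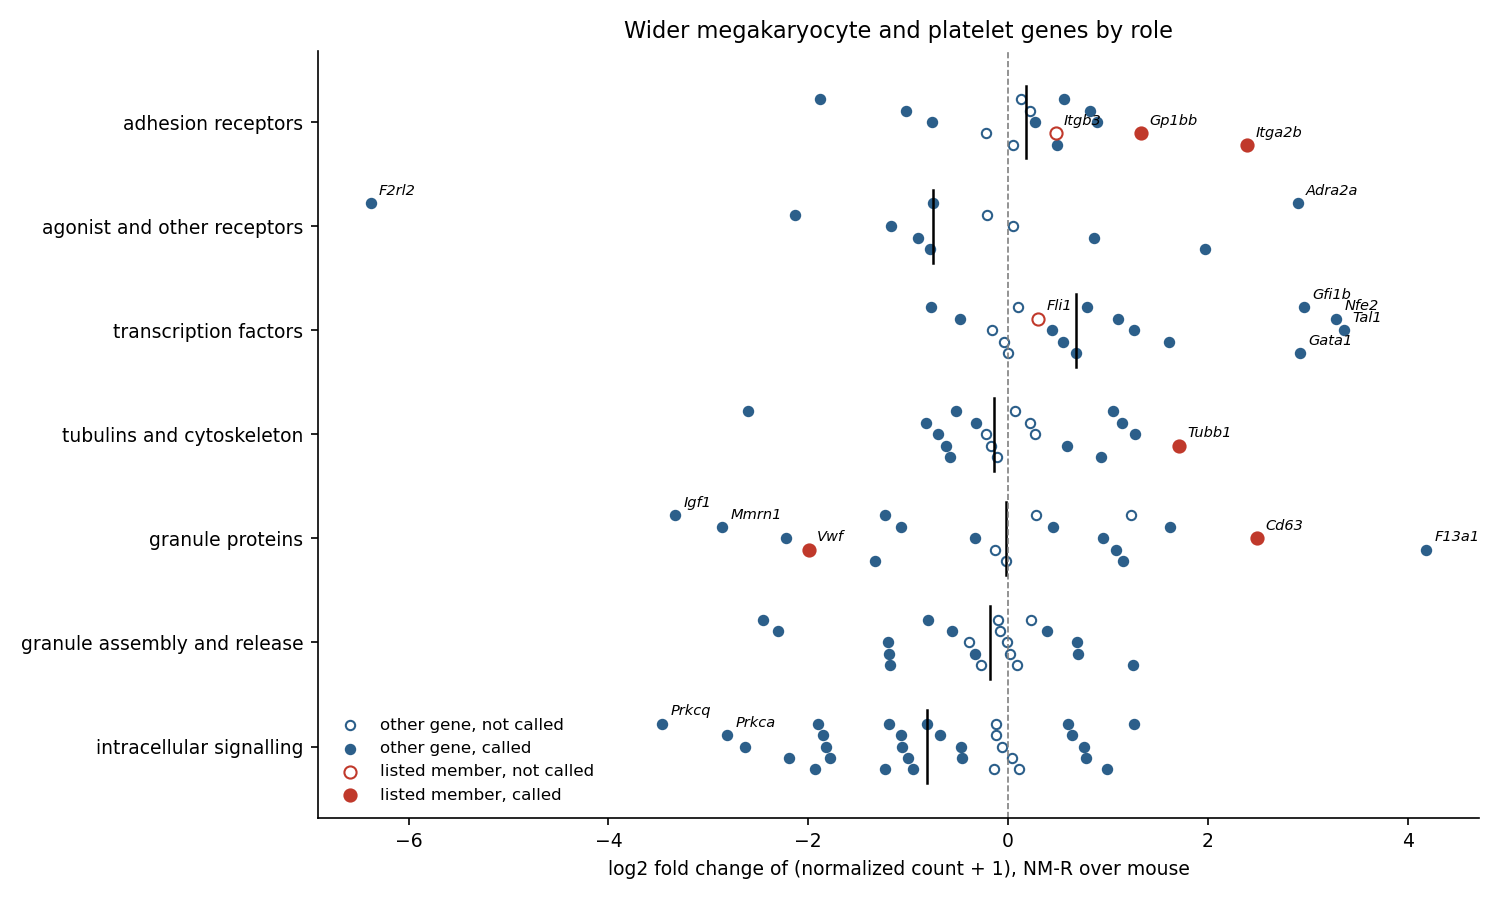
Log2 fold change of normalized count + 1 between NM-R and mouse (x axis) for the genes of each role list (y axis), with filled points for genes called by limma, open points for others, red for the 7 members, and a vertical bar at the median of the other genes of a list. Transcription factors lie mostly to the right of 0 and intracellular signalling genes and agonist receptors mostly to the left, while granule proteins are spread from Igf1 to F13a1.

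Tubulins and cytoskeletal genes were divided, with 5 of 18 called higher, 7 lower and 6 not called (median log2 fold change -0.14). The calponin Cnn3, the tropomyosin Tpm1 and the α tubulin Tuba4a rose with log2 fold changes of 1.27, 1.14 and 1.05. Zyx, Tubb2a and Was fell, with -0.82, -0.70 and -0.62, at limma adjusted p between 1.64e-04 and 0.00135. Fermt3, the kindlin that activates integrins in blood cells, rose with 0.59 (limma adjusted p = 9.47e-04). Tubb2a, a β tubulin of many cell types, thus moved against Tubb1.

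Of 17 granule proteins besides Vwf and Cd63, 6 were called higher, 7 lower and 4 not called (median log2 fold change -0.02). F13a1, the chain of the enzyme that crosslinks fibrin, which platelets and macrophages hold, was measured at 389, 338 and 271 in mouse 1, 2 and 3, 5359, 6809.9 and 4451 in ssNM-R 2, 3 and 6, and 7679, 6704 and 5679 in lsNM-R 1, 4 and 5. All NM-R spleens lay far above all mice. The log2 fold change was 4.19 (SE 0.16, limma adjusted p = 1.22e-08). Thrombospondin Thbs1 rose from 2268 ± 665 to 6893 ± 1176 and the coagulation factor F5 from 513 ± 171 to 1131 ± 298 (SD, n = 3 and 6), with log2 fold changes of 1.63 and 1.15. Multimerin Mmrn1, which binds factor V in α granules, fell from 317 ± 80.4 to 44.7 ± 20.8, Pdgfa from 162 ± 35.8 to 35.4 ± 13.8 and Igf1 from 1228 ± 161 to 121 ± 13.4, with log2 fold changes of -2.86, -2.22 and -3.33. Mmrn1 and Vwf, a pair of large multimeric granule proteins that endothelium also makes, thus fell together, while F5, the cargo of Mmrn1, rose.

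Genes for granule assembly and release had 4 of 20 called higher, 8 lower and 8 not called (median log2 fold change -0.18). Rab27a, which tethers dense granules, the fusion protein Stx11 and the sorting gene Hps1 rose with 1.25, 0.70 and 0.69. Hps3, Hps5 and Vipas39 fell with -2.45, -1.20 and -1.19. Of these genes Hps1, Hps3 and Hps5 are lost in human Hermansky-Pudlak syndrome, in which dense granules fail to form, and they went in both directions. Of 31 signalling genes 6 were called higher, 19 lower and 6 not called (median log2 fold change -0.81). The G protein chain Gng11, the regulator Rgs18 and the kinase Mylk rose with 1.26, 0.99 and 0.78, whereas Prkcq, Prkca and Plcg2, which lymphocytes use as well, fell with -3.46, -2.81 and -2.64 (limma adjusted p at most 4.44e-06). The log2 differences of Prkcq and Prkca between lsNM-R and ssNM-R were 0.79 and 0.64 (unadjusted p = 8.18e-04 and 0.00395, limma adjusted p = 0.429 and 0.442), which did not pass the threshold. Both are given because they were among the 3 genes of lowest p between the cohorts, like P2ry12. Of all genes, 8.79% had an unadjusted limma p under 0.05. DESeq2 called Prkcq between the cohorts, with a log2 difference of 0.80 and an adjusted p of 0.0139, and over the alternatives its adjusted p lay between 0.0139 and 0.731. The cyclooxygenase Ptgs1, the first enzyme of thromboxane synthesis in platelets, fell with -0.81, and the lipoxygenase Alox12 was at 757 ± 110.4 (SD, n = 3) in mice and 1177 ± 315 (SD, n = 6) in NM-Rs, with a limma adjusted p of 0.0278 that was 0.0635 without mouse 1 and 0.123 without mouse 3 (range over the alternatives 0.00256 to 0.123).

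Several of these genes are shared with leukocytes, so the marker lists of other spleen cells are given as well. All 11 B cell markers in the table (of 12) and all 12 T cell markers (of 14) were called lower in NM-R, with median log2 fold changes of -3.73 and -2.00. Their summed normalized counts were 64103 ± 359 (SD, n = 3) in mice and 4705 ± 1737 (SD, n = 6) in NM-Rs for B cells, with Cd22 the most abundant, and 17734 ± 599 (SD, n = 3) in mice and 6205 ± 1772 (SD, n = 6) in NM-Rs for T cells, with Cd4 the most abundant. Some of the signalling genes, such as Prkcq, Prkca and Plcg2, are shared with these cells. Most of the signalling genes fell, and the part of lymphocytes in that fall was not tested. Of 10 neutrophil markers (of 18) 8 were called higher and 2 lower (median log2 fold change 1.36), with sums of 10588 ± 1423 (SD, n = 3) in mice and 39080.0 ± 6641 (SD, n = 6) in NM-Rs and S100a9 the most abundant. Of 17 macrophage markers (of 20) 6 were called higher, 8 lower and 3 not called (median -0.24), with sums of 94814 ± 11109.9 (SD, n = 3) in mice and 107700.0 ± 12791 (SD, n = 6) in NM-Rs and Slc40a1 the most abundant. All 5 markers of basophils and mast cells in the table (of 12) were called higher (median 2.07), with sums of 244 ± 34.6 (SD, n = 3) in mice and 1019.9 ± 152 (SD, n = 6) in NM-Rs and Hdc the most abundant. No marker of these lists was at 0 in all spleens of a species. The part of macrophages, neutrophils and mast cells in the rise of Cd63 and F13a1, which they share, was not tested.

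Cd34, found on stem and progenitor cells and on endothelium, was the most abundant of 8 stem and progenitor markers (of 11), of which 3 were called higher and 2 lower (median log2 fold change -0.10), with sums of 1923 ± 269 (SD, n = 3) in mice and 2861 ± 193 (SD, n = 6) in NM-Rs. It rose from 353 ± 24.4 (SD, n = 3) to 1573 ± 233 (SD, n = 6), a log2 fold change of 2.14 (limma adjusted p = 1.23e-07), with no overlap between the species. Ccl5, a chemokine that platelets store and T cells make, fell from 1909 ± 228 to 30.9 ± 18.2, and Il1a, a cytokine of platelets and myeloid cells, from 141 ± 18.7 to 59.7 ± 18.8 (SD, n = 3 and 6), with log2 fold changes of -6.07 and -1.28 (limma adjusted p = 4.33e-07 and 6.19e-04). Angpt1, an α granule ligand of vessel receptors, rose with 1.08, and Lyve1, a receptor of lymphatic and sinus endothelium, with 2.99 (limma adjusted p = 1.61e-04 and 4.07e-05). Lyve1 was low in mice, with 6, 13 and 15 reads in mouse 1, 2 and 3, so the size of its fold is uncertain.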

How the data were processed

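According to the methods and labels, the authors aligned spleen RNA reads with STAR 2.5.3a, counted them per gene with HTSeq 0.10.0, named NM-R genes after their mouse homologues and scaled each library by its DESeq2 size factor. The signal values the authors deposited are therefore read counts per gene over a size factor per library, not divided by gene length. Build mm9 was used for mice. The labels name a HiSeq instrument and mRNA libraries and the methods a NovaSeq instrument and total RNA libraries, and which holds is not known. All (100%) of the values were whole multiples of a step per library (tolerance 1e-06), which returned the reads.

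Values were fitted as log2(normalized count + 1) in limma 3.58.1 (R 4.3.3), with a mean for each of the 3 groups over 9 spleens and variances moderated along a trend. Tests were 2-sided, and p values were adjusted by Benjamini and Hochberg's method over 12946 genes. The comparison of NM-R with mouse uses the mean of both cohorts. The fit was tested on simulated data. Alternatives were pseudocounts of 0.5 and 5, a minimum mean of 10, other scalings, no trend, fewer groups, edgeR 4.0.16 and DESeq2 1.42.0 on the recovered reads, a replicate block, a depth term and each spleen left out. The members and lists were chosen with earlier results of these data known. In each role list the 3 highest and 3 lowest called genes with a mean of at least 50 are named, besides the members, genes the study names for this lineage, the most abundant marker of each list and the 3 genes of lowest p between the cohorts. Others named were chosen after their values were seen. A gene of the lists is not reported here. Each library came from a separate animal.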

Additional observations from a re-analysis of the deposited data

Results flagged for a closer look

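Among the 6 NM-R spleens, 3 of the 79 genes tested in this way had a spleen far from all others. This share is not above that given by chance, which is about 1 in 20. Cd63 was at 6154 normalized counts in ssNM-R 6, with the others between 4609 and 5142. Adra2a was at 19.7 in lsNM-R 4, with the others between 129 and 178, and Mmrn1 was at 85.3 in the same spleen, with the others between 31.4 and 46.1. Whether any of the 3 has a cause other than chance was not tested.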

How the results depend on the processing

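Of 2319 alternative values for 115 results, 2267 kept their direction and side of the threshold, or stayed near for counts. Itga2b, Gp1bb, Tubb1, Vwf and Cd63 kept theirs against mice in all 20 alternatives, with log2 fold changes of 2.24 to 2.498, 1.26 to 1.46, 1.51 to 1.88, -2.35 to -1.85 and 2.40 to 2.59. No alternative changed how reads in the exons that Gp1bb shares with Sept5 were counted. Itgb3 against mice passed the threshold with an equal upper quartile (0.57) and in DESeq2 (0.50), and with spleens left out it was 0.32 to 0.63. In ssNM-Rs alone it passed with only the compared groups fitted (0.42, adjusted p = 0.0367 in limma), and in lsNM-Rs alone in DESeq2 (0.60, adjusted p = 0.0417) and in limma without lsNM-R 5 (0.83, adjusted p = 0.00762), within ranges of adjusted p of 0.0237 to 0.422 and 0.00762 to 0.375. Runx1 was called lower against mice with equal totals (-0.21, limma adjusted p = 0.0292, range 0.0292 to 0.478), and Slc40a1 lost its call with quantile normalization (0.36) and without mouse 3 (0.49). Fli1 against mice passed the threshold with an equal upper quartile (0.40), quantile normalization (0.36), edgeR (0.34), DESeq2 (0.32) and a depth term (0.30), and was 0.23 to 0.40 with spleens left out. An equal upper quartile moved the median over all genes from 0.01 to 0.10, by which values under it are raised, and the causes of the other changes were not tested. Between lsNM-R and ssNM-R, DESeq2 called 54 of all genes, limma 0. Differences near 0 changed sign with spleens left out, with ranges of -0.0379 to 0.31 for Fli1 between ssNM-R and mouse, and between the cohorts -0.25 to 0.12 for Itga2b, -0.21 to 0.40 for Itgb3 and -0.28 to 0.39 for Tubb1. Against mice P2ry12 was -0.00557 with equal totals and -0.0675 to 0.26 with spleens left out, and Cdh5 was 0.0495 with an equal upper quartile, 0.0121 with quantile normalization and -0.16 to 0.10 with spleens left out. The ratio of Itga2b to Itgb3, added after seeing the data, was 3.66 to 4.01 times as high in NM-Rs as in mice with spleens left out.

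Mice and ssNM-Rs share the numbers 2 and 3 and mice and lsNM-Rs the number 1. Deviations of same-numbered spleens from their group means were correlated at 0.0101, -0.00453 and 0.000765 for the numbers 1, 2 and 3. The same-numbered spleens thus did not deviate together. Such correlations cannot show whether these spleens were also handled together. With a replicate block, 9834 genes were called between NM-R and mouse in place of 10158, all 7 members were, Itgb3 at 0.47 and Fli1 at 0.37. With it Itgb3 was also called in ssNM-Rs (0.46, limma adjusted p = 0.0237) and Kdr in NM-Rs (-0.38, 0.0137), while the calls of Fli1 in lsNM-Rs (0.41, 0.0984) and of Mpig6b in NM-Rs (0.25, 0.167) were lost. Over all alternatives the adjusted p lay between 0.0237 and 0.422 for Itgb3, 0.0137 and 0.675 for Kdr, 6.93e-04 and 0.0984 for Fli1, and 0.0102 and 0.167 for Mpig6b. The cohorts share no number and cannot be paired, so the block reaches their difference only through the mice, where its values of 0.23 for Gp1bb and -0.20 for Tubb1 were not called.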

Other observations

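The 7 genes are a small part of the lineage, and those of the Gp1b complex other than Gp1bb, as well as Pf4, Ppbp and Gp6, were not analysed here. Reads of each species were counted on its own gene models, so a fold between species holds any difference in the length of the counted transcripts or in the annotation of a gene, which was not tested. The cohorts were compared with 3 spleens each, and lsNM-R 4 was the only female. RNA of megakaryocytes in the spleen and of platelets passing through it cannot be told apart.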
